A study of Sus scrofa with 6 samples.

Results

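Intraflagellar transport (IFT) and the BBSome were followed through 39 genes in the ampulla of the pig (Sus scrofa) oviduct, the segment in which fertilisation takes place. The genes were chosen by name, as known subunits, motors and regulators of these complexes, and not by their values. Earlier results of these data were known when they were chosen. All 39 had a row among the 35670 genes of the count table and all 39 were among the 17920 genes tested. Of these, WDR34 and WDR60 were matched under their current symbols DYNC2I2 and DYNC2I1. RNA came from ampulla tissue of female pigs, which the labels also call oviduct ampullary cells, in 3 libraries labelled post-ovulatory and 3 labelled early luteal, the stage in which corpora lutea form. Treatment, breed and age are not in the labels, and neither is whether each replicate came from its own animal. The p-values therefore reflect only how these libraries vary, and that variation may be technical. The only comparison in the design is early luteal against post-ovulatory tissue.

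Cilia are built and maintained by trains of IFT particles that move along the axoneme. Kinesin-2 pulls the trains outward with the IFT-B complex, and dynein-2 returns them with the IFT-A complex. The BBSome is a coat-like complex that rides on the trains and carries membrane proteins out of the cilium. In the oviduct, motile cilia of multiciliated epithelial cells move the oocyte and tubal fluid, and the same transport genes also serve the primary cilia of stromal and other cells. In whole tissue, fewer cells of a type and less RNA per cell cannot be told apart.

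No member passed the threshold between the stages. With edgeR's quasi-likelihood test 0 of 39 had a Benjamini-Hochberg adjusted p under 0.05, the lowest being 0.655 for WDR60 in this fit, and the percentage called over all 17920 genes was also 0. DESeq2 called 0 of the 39 (1.02% of all genes with an adjusted p), and limma voom called 0 of the 39 without quality weights (0% of all genes) and 0 with them (0.0558%). At an unadjusted edgeR p under 0.05 there were 2 members, KIF3B with the higher and WDR60 with the lower level in early luteal tissue, against 7.11% of all genes (3.57% higher and 3.54% lower). The fitted difference was higher in early luteal tissue for 25 members and lower for 14, where 48.2% of all genes were higher. The median log2 fold change of the members was 0.06, beside -0.03 over all genes tested. Without post-ovulatory replicate 2 the split was 17 higher and 22 lower, with a median of -0.02.

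The differences were bounded more closely for the members than for most genes, in a comparison that did not match genes by level. The 95% interval lay within a 2-fold change in either direction for 19 of the 39 members, against 19.6% of all genes tested. The median absolute log2 fold change was 0.24 for the members and 0.40 over all genes, and the median SE was 0.33 against 0.48. The 28 motile axoneme genes had similar values, with 13 intervals (46.4%) within 2-fold and a median SE of 0.35. The members were also well counted, with a median level of 84.1 CPM (counts divided by the TMM-scaled total of the library, multiplied by 1e6) against 16.5 CPM over all genes tested: the lowest count of any member in any library was 31, where a count of 3 was taken as the floor. Between genes of the table, counts were not divided by transcript length, so levels are compared below only within a gene or within a sum over the same genes.

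**Figure D1:**
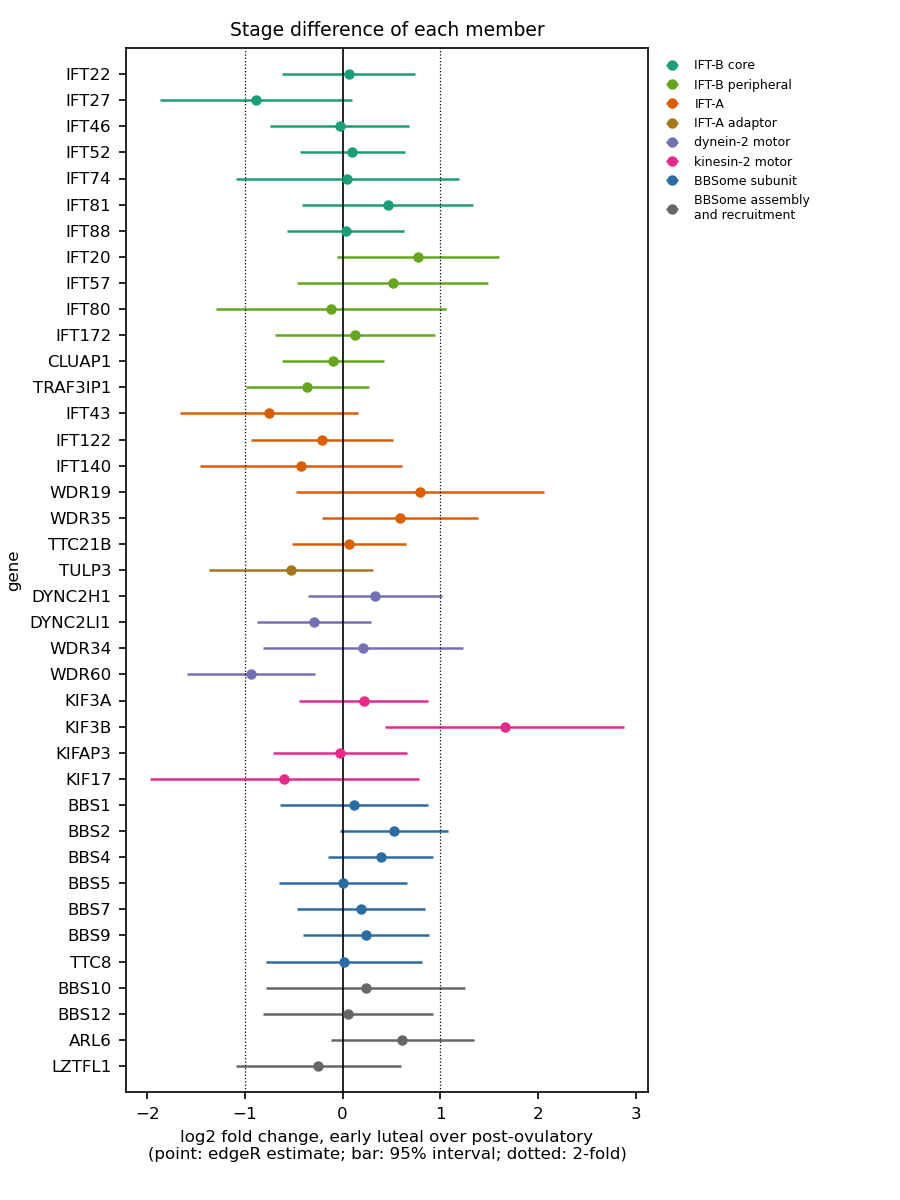
Fitted log2 fold change of the 39 members, early luteal over post-ovulatory, coloured by role. Points are edgeR estimates, bars are 95% intervals and dotted lines mark a 2-fold change. Intervals cross 0 for every member except KIF3B (0.44 to 2.88) and WDR60 (-1.59 to -0.28).

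The members moved together from library to library within the post-ovulatory stage. Post-ovulatory replicate 2 was the lowest of its stage in 33 of the 39 members, where it was the lowest in 34.3% of all genes tested. It also had the smallest total of the 6 libraries, 7370723 counts, and the part of depth in its low values was not tested. Post-ovulatory replicate 1 was the highest of its stage in 26 of the 39 members, against 36.4% of all genes. The summed level of the members was 4577, 3073 and 4107 CPM in post-ovulatory replicates 1, 2 and 3, and 4088, 4909 and 4205 CPM in early luteal replicates 1, 2 and 3. The stages overlapped in this sum, at 3919 ± 770 CPM (SD, n = 3) in post-ovulatory and 4401 ± 444 CPM (SD, n = 3) in early luteal tissue.

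Genes of the motile axoneme, which build the moving parts of the cilium, were low in the same library. Of 28 axonemal genes with a row, 24 were lowest of their stage in post-ovulatory replicate 2. Their score, the mean over genes of log2 CPM centred per gene, was 0.39, -0.44 and 0.05 in the post-ovulatory replicates and 0.01, 0.01 and -0.02 in the early luteal ones. The score of the members was 0.21, -0.34 and 0.07 against 0.02, 0.02 and 0.03. Both lists had their lowest score in the same library. A score near 0 averages members that go both ways: in early luteal replicate 2 the centred values of single members ran from -2.18 (KIF17) to 1.47 (KIF3B).

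Markers of cell types differed in post-ovulatory replicate 2 too. The list of multiciliated markers shares TEKT1, SPAG6, RSPH1, CCDC39, DNAI1 and DNAH5 with the axonemal list, so its score repeats part of those values. The score of 10 markers of multiciliated cells was -0.44 in post-ovulatory replicate 2, and their summed level there was 1391 CPM, against 1918 to 2788 CPM in the other 5 libraries. Their score was also low in early luteal replicate 2 (-0.43), where the score of the members was 0.02. These markers went both ways there. On the log2 scale 4 of the 10 were over 0.5 above the mean of early luteal replicates 1 and 3, and 5 were over 0.5 below it. Their summed level was 2061, 1918 and 1979 CPM in early luteal replicates 1, 2 and 3. None of these 10 markers was at 0 in any library. In post-ovulatory replicate 2 the 7 stromal markers had their highest score (0.84). The 7 smooth muscle markers stood at 0.51 there, above the other post-ovulatory libraries. The secretory markers, 3 genes with a row, had their lowest score there (-1.44). In that library OVGP1, the oviductal glycoprotein, stood at 156 CPM (292 to 10690 CPM elsewhere) and SLPI at 400.4 CPM (707 to 2167 CPM elsewhere), whereas KRT7 stood at 364 CPM, above the other post-ovulatory libraries. The 5 endothelial markers and the 6 leukocyte markers tested (MS4A1 was too low) had their highest scores there (0.68 and 1.01). The 6 general epithelial markers stood at -0.21.

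Between the stages 0 genes of any marker list passed in edgeR, and DESeq2 called 1, the stromal collagen COL1A1 (adjusted p = 0.00710). DESeq2 called 1.02% of all genes with an adjusted p. COL1A1 stood at 497, 597 and 184 CPM in post-ovulatory and at 91.3, 135 and 104 CPM in early luteal replicates, with no overlap. All 7 stromal markers had a lower fitted early luteal level, and 4 of the 7 did not overlap (57.1%, against 17.2% of all genes tested). The part of these cell types in the members' values was not tested. The summed level of the members divided by that of the axonemal genes lay between 0.737 and 0.899 in all 6 libraries.

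**Figure D2:**
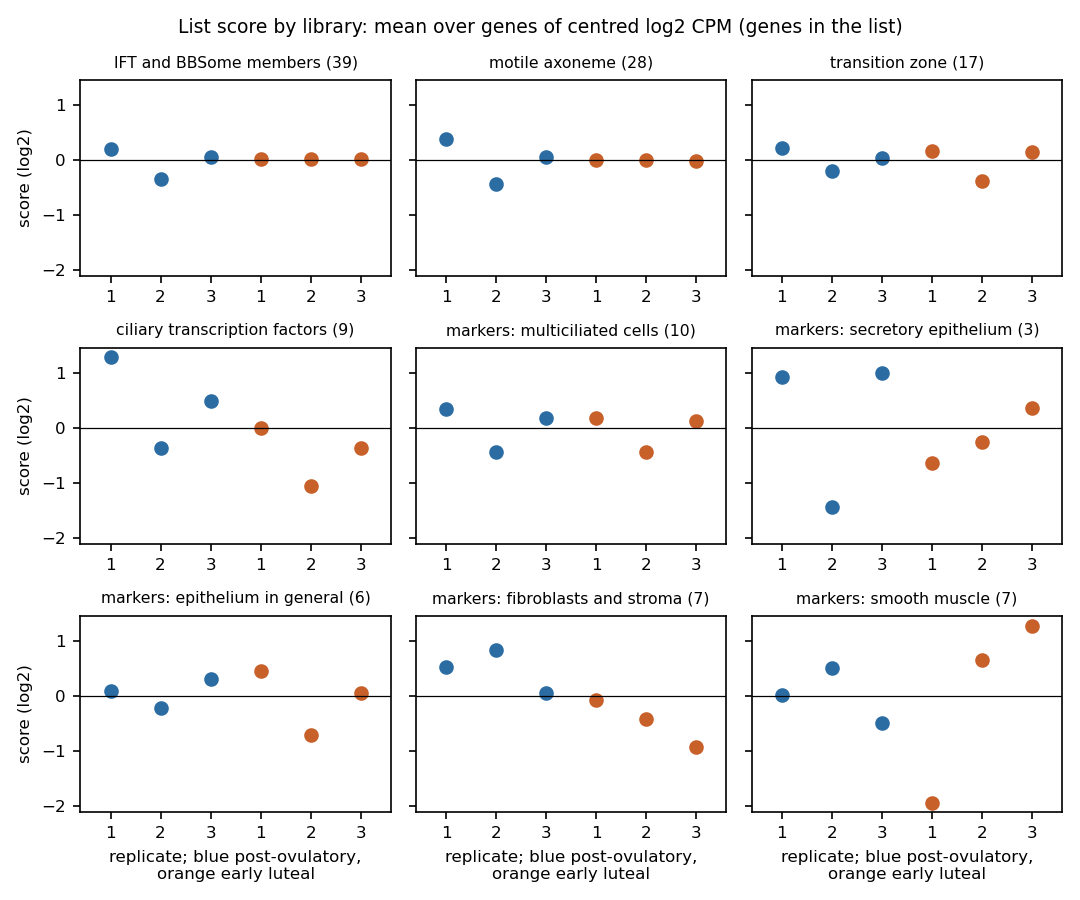
Score of the members and of 8 other gene lists in each library, as the mean over genes tested of log2 CPM centred per gene. The number of genes with a row stands in brackets and each point is a library. RFX4, counted in brackets among the ciliary transcription factors, was not tested and is not in their score. The members and the axonemal genes are lowest in post-ovulatory replicate 2 (-0.34 and -0.44) and lie near 0 in the early luteal libraries.

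The core of IFT-B is the part of the train that binds tubulin and other cargo. Of its 7 members 5 had a higher and 2 a lower fitted level in early luteal tissue, and the median log2 fold change was 0.05. IFT88, needed for cilium assembly in general, stood at 187, 119 and 173 CPM in post-ovulatory and at 165, 163 and 161 CPM in early luteal replicates 1, 2 and 3. The early luteal values lay inside the post-ovulatory range, and the 95% interval of the log2 difference was -0.57 to 0.63. IFT52 stood at 76.1, 59.5 and 73.8 CPM against 69.3, 80.3 and 74.9 CPM, again with overlap. IFT46, the core member with the most counts on average, stood at 277, 153 and 237 CPM against 262, 168 and 223 CPM. Its fitted difference changed sign with the scaling, from -0.03 with TMM to 0.02 with upper quartile scaling.

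IFT27 had the lowest p of the core. This small GTPase, which links IFT-B to BBSome export, stood at 55.2, 28.3 and 57.4 CPM in post-ovulatory and at 31.9, 13.0 and 31.3 CPM in early luteal replicates. Post-ovulatory replicate 2 lay below early luteal replicates 1 and 3, so the stages overlapped. The log2 fold change was -0.88 ± 0.43 (SE), and the adjusted p was 0.692 (edgeR). IFT74 and IFT81, the partners that together bind tubulin, shared their order of libraries in part. IFT74 stood at 297, 105 and 177 CPM against 120.5, 339 and 139 CPM, and IFT81 at 127, 54.6 and 100.1 CPM against 99.7, 184 and 105 CPM. In both genes early luteal replicate 2 was the highest and post-ovulatory replicate 2 the lowest library. IFT22 stood between 58.2 and 98.0 CPM over all 6 libraries.

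The peripheral IFT-B proteins connect the core to the kinesin and to IFT-A. Of these 6 members 3 had a higher and 3 a lower fitted level, with a median log2 fold change of 0.01. IFT20, which also sits at the Golgi and serves vesicle delivery to the cilium, stood at 63.4, 51.4 and 71.4 CPM in post-ovulatory and 81.8, 166 and 70.2 CPM in early luteal replicates. Early luteal replicate 2 stood apart, and replicate 3 lay below post-ovulatory replicate 3. The log2 fold change was 0.77 ± 0.36 (SE; edgeR adjusted p = 0.688) and 0.29 without early luteal replicate 2. IFT57 stood at 167, 98.8 and 135 CPM against 123, 325 and 124.5 CPM. Its log2 fold change of 0.51 became -0.11 without early luteal replicate 2.

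IFT172, the largest peripheral subunit, went the other way in that library, at 260.3, 189.8 and 228 CPM against 287, 133 and 319 CPM. TRAF3IP1, also called IFT54, stood at 128, 82.2 and 135 CPM against 76.2, 99.6 and 93.1 CPM, with overlap through post-ovulatory replicate 2 (log2 fold change -0.36 ± 0.28, SE; edgeR adjusted p = 0.780). IFT80 was high in post-ovulatory replicate 1 (142 CPM) and early luteal replicate 2 (116 CPM) and between 42.6 and 57.5 CPM in the other 4 libraries. CLUAP1, also called IFT38, varied least of these, from 81.3 to 100.4 CPM.

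IFT-A carries the trains back and, with its adaptor TULP3, brings membrane receptors into the cilium. Of its 6 subunits 3 had a higher and 3 a lower fitted level, with a median log2 fold change of -0.07. IFT43 was the only IFT-A gene whose stages did not overlap, at 39.2, 29.8 and 33.9 CPM in post-ovulatory and 25.1, 10.03 and 25.9 CPM in early luteal replicates. All 3 early luteal libraries lay below all 3 post-ovulatory ones, by 1.68-fold in the fit (log2 fold change -0.75 ± 0.40, SE; edgeR adjusted p = 0.711). Without early luteal replicate 2 the value was -0.43. IFT43 spans chr7:99155889-99254436 (RefSeq, Sscrofa11.1) and overlaps TGFB3, so reads in the overlap may be shared between the genes.

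WDR19, also called IFT144, had the widest spread of the IFT-A subunits in post-ovulatory tissue. It stood at 70.3, 49.4 and 225 CPM in post-ovulatory and at 275, 171 and 152 CPM in early luteal replicates. Post-ovulatory replicates 1 and 2 lay far below the other 4 libraries, whereas replicate 3 lay among the early luteal values. The log2 fold change was 0.79 ± 0.55 (SE; edgeR adjusted p = 0.769), and without post-ovulatory replicate 3 it was 1.74 (edgeR adjusted p = 0.871). In the same 3 post-ovulatory libraries IFT122 stood between 134 and 152 CPM and TTC21B between 47.6 and 56.1 CPM. WDR19 lies at chr8:30453969-30553699 and overlaps RFC1.

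WDR35, also called IFT121, stood at 155, 93.2 and 123.5 CPM against 133, 273 and 153 CPM, with early luteal replicate 2 highest (log2 fold change 0.59 ± 0.35, SE; edgeR adjusted p = 0.736). Without that library the value was 0.20. IFT140 was lowest in the same library, at 27.1 CPM, and between 74.1 and 116 CPM in the other 5. TULP3 stood at 28.3, 18.6 and 32.3 CPM against 24.9, 14.2 and 15.9 CPM, with overlap (log2 fold change -0.53 ± 0.37, SE; edgeR adjusted p = 0.769).

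Dynein-2 is the motor of return transport. Its intermediate chain WDR60 and the kinesin subunit KIF3B had the lowest p of the members, WDR60 first in edgeR as fitted here and KIF3B first in DESeq2. WDR60 stood at 96.3, 58.0 and 78.1 CPM in post-ovulatory and at 46.4, 42.5 and 32.6 CPM in early luteal replicates 1, 2 and 3. The early luteal levels were all under the lowest post-ovulatory level. The means were 77.5 ± 19.2 CPM (SD, n = 3) and 40.5 ± 7.15 CPM (SD, n = 3), a 1.91-fold lower early luteal level (log2 fold change -0.94 ± 0.29, SE). The adjusted p was 0.655 in edgeR and 0.208 in DESeq2, so the difference did not pass over all genes. Leaving out each library in turn gave log2 fold changes from -1.11 to -0.76. WDR60 lies at chr18:507163-555142 and overlaps no other gene of the RefSeq annotation.

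The partner intermediate chain WDR34 did not share this pattern. It stood at 76.7, 78.3 and 76.9 CPM in post-ovulatory and at 109, 32.2 and 126 CPM in early luteal replicates, so that early luteal replicate 2 was the lowest library and the other 2 the highest. The heavy chain DYNC2H1, which holds the motor domain, stood at 202, 129.6 and 161 CPM against 164, 272 and 183 CPM (log2 fold change 0.33 ± 0.30, SE, and 0.08 without early luteal replicate 2). The light intermediate chain DYNC2LI1 stood at 252, 220.3 and 271 CPM against 219, 223 and 163 CPM (log2 fold change -0.30 ± 0.26, SE). The stages overlapped in these 3 genes, and their edgeR adjusted p ran from 0.801 (DYNC2LI1) to 0.924 (WDR34). In the RefSeq annotation WDR34 overlaps 2 other genes, SPTAN1 among them, and DYNC2LI1 overlaps ABCG5, whereas DYNC2H1 overlaps no other gene.

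Kinesin-2 is the outward motor, a pair of the motor subunits KIF3A and KIF3B with the accessory subunit KIFAP3. KIF3B had the largest fitted difference of the 39 members. It stood at 72.3, 49.1 and 68.4 CPM in post-ovulatory and at 58.1, 278 and 264.5 CPM in early luteal replicates 1, 2 and 3. Early luteal replicates 2 and 3 lay far above all other libraries, and early luteal replicate 1 lay within the post-ovulatory range. The means were 63.3 ± 12.4 CPM (SD, n = 3) and 200.2 ± 123 CPM (SD, n = 3), with a log2 fold change of 1.66 ± 0.53 (SE). The adjusted p was 0.664 in edgeR and 0.142 in DESeq2. Without early luteal replicate 1 the log2 fold change was 2.11 (edgeR adjusted p = 0.0928), and without early luteal replicate 2 it was 1.34 (0.599).

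The partners of KIF3B in the motor did not show its pattern. KIF3A stood at 206, 142 and 196 CPM against 162, 266 and 204.5 CPM, and KIFAP3 at 86.7, 57.7 and 58.5 CPM against 55.2, 87.7 and 56.3 CPM. Their intervals were -0.45 to 0.88 and -0.72 to 0.66 on the log2 scale. Early luteal replicate 3, high in KIF3B, was within the range of the other libraries in both. Smooth muscle markers moved with KIF3B among the early luteal libraries: their summed level was 1590 CPM in replicate 1, 9052 CPM in replicate 2 and 12040 CPM in replicate 3. Among the post-ovulatory libraries, replicate 2 had the highest smooth muscle sum (7051 CPM, against 4289 and 3735 CPM) and the lowest KIF3B level. The part of smooth muscle in the KIF3B values was not tested. KIF3B lies at chr17:35914214-35962332 and overlaps no other annotated gene. Of its partners, KIF3A overlaps RAD50, IL13 and IL4, and KIFAP3 overlaps METTL11B. KIF17, a separate kinesin-2 motor, stood at 27.0, 21.2 and 35.1 CPM against 22.7, 4.20 and 27.9 CPM, with overlap.

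**Figure D3:**
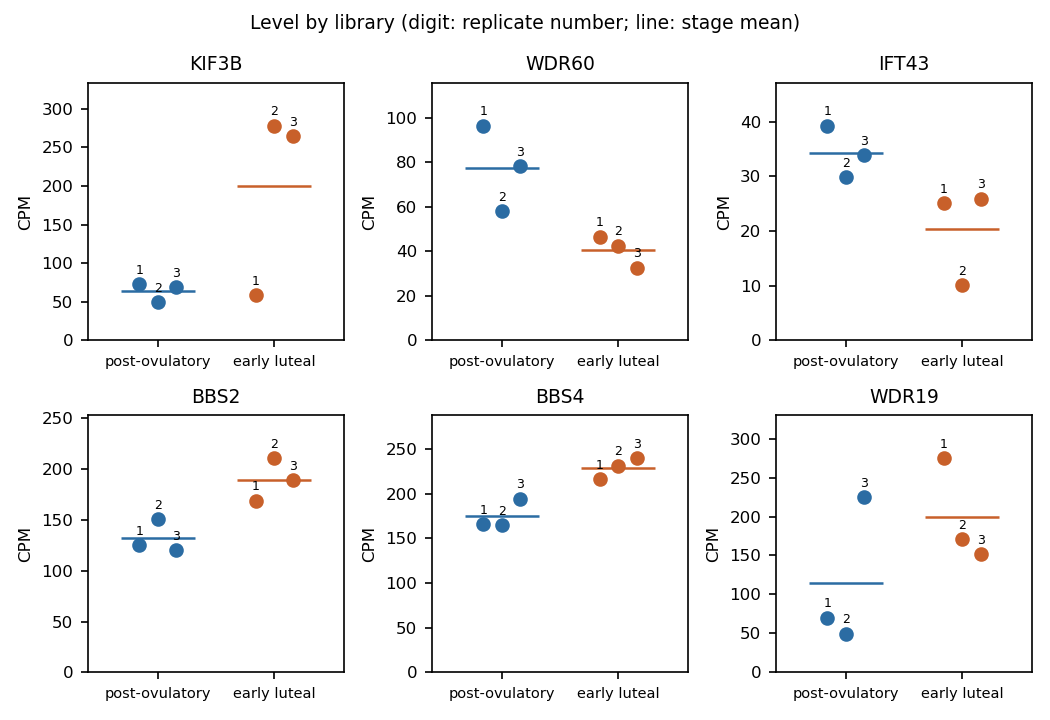
Level of 6 members in each library in CPM, with the replicate number above each point and a line at the stage mean (n = 3 per stage). WDR60 and IFT43 lie lower and BBS2 and BBS4 higher in all 3 early luteal libraries, KIF3B is high in early luteal replicates 2 and 3 (278 and 264.5 CPM), and WDR19 is low in post-ovulatory replicates 1 and 2 (70.3 and 49.4 CPM).

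The BBSome subunits were the role in which every gene had a higher fitted level in early luteal tissue, 7 of 7, with log2 fold changes from 0.003 (BBS5) to 0.52 (BBS2) and a median of 0.19. The direction held for all 7 under each of the 4 scalings tried, and for 5 when either post-ovulatory replicate 2 or 3, or the first early luteal library, was left out. Summed over the 7 subunits, the level was 543, 509 and 533 CPM in post-ovulatory and 668, 641 and 668 CPM in early luteal replicates 1, 2 and 3. The stages did not overlap, at 528 ± 17.5 CPM (SD, n = 3) and 659 ± 15.6 CPM (SD, n = 3). Over all genes tested, 48.2% had a higher fitted early luteal level and 17.2% did not overlap between the stages. The sums of the other roles all overlapped. The BBSome sums stayed apart under the other 3 scalings as well (library totals alone, upper quartile, DESeq2 size factors), the closest being 548 against 570.3 CPM with library totals alone. No p is given for the BBSome sum, because the members were chosen as a list with results of these data known.

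BBS2 and BBS4 made up most of the difference in that sum. BBS2, a subunit of the BBSome core, stood at 125, 151 and 120.2 CPM in post-ovulatory and at 169, 211 and 189 CPM in early luteal replicates. All early luteal libraries lay above all post-ovulatory ones, by 1.44-fold in the fit (log2 fold change 0.52 ± 0.24, SE; edgeR adjusted p = 0.685). BBS4, which links the complex to centriolar satellites, stood at 165, 164 and 194 CPM against 216, 231 and 239.6 CPM, a 1.31-fold higher level with no overlap (log2 fold change 0.39 ± 0.24, SE; edgeR adjusted p = 0.736). BBS2 lies at chr6:18542383-18575338 and BBS4 at chr7:60631913-60693359, and neither overlaps another annotated gene.

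The other 5 subunits overlapped between the stages. BBS9 stood at 58.2, 32.5 and 48.1 CPM against 54.6, 51.8 and 57.2 CPM (log2 fold change 0.24 ± 0.28, SE; edgeR adjusted p = 0.857). BBS1, which contacts the GTPase ARL6, was lowest in early luteal replicate 2 (48.4 CPM) and highest in early luteal replicate 1 (112 CPM). BBS5, BBS7 and TTC8 had intervals of -0.66 to 0.66, -0.47 to 0.84 and -0.78 to 0.81 on the log2 scale. For 6 of the 7 subunits the interval lay within a 2-fold change. Relative to IFT-B the BBSome did not separate the stages: its sum over that of the 13 IFT-B members was 0.275, 0.450 and 0.333 in the post-ovulatory replicates and 0.438, 0.329 and 0.426 in the early luteal ones.

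BBS10 and BBS12 are chaperonin-like proteins that assemble the BBSome, ARL6 recruits it to membranes and LZTFL1 regulates its entry into cilia. ARL6 stood at 125, 93.7 and 112 CPM in post-ovulatory and at 144, 242 and 119 CPM in early luteal replicates. The overlap came from early luteal replicate 3, and the log2 fold change was 0.61 ± 0.32 (SE; edgeR adjusted p = 0.708) and 0.25 without early luteal replicate 2. LZTFL1 stood at 279.9, 114 and 179.9 CPM against 137, 210.4 and 136 CPM, with most of its spread inside the post-ovulatory stage. BBS10 and BBS12 had low levels, from 6.63 to 13.1 CPM and from 11.5 to 20.2 CPM, and their stages overlapped.

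Over all roles the stages did not overlap in 4 of the 39 members, BBS2 and BBS4 with higher and WDR60 and IFT43 with lower early luteal levels. Over all genes tested 17.2% did not overlap, 7.61% with higher and 9.57% with lower early luteal levels. With library totals alone the count was 7, against 16.3% of all genes.

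**Figure D4:**
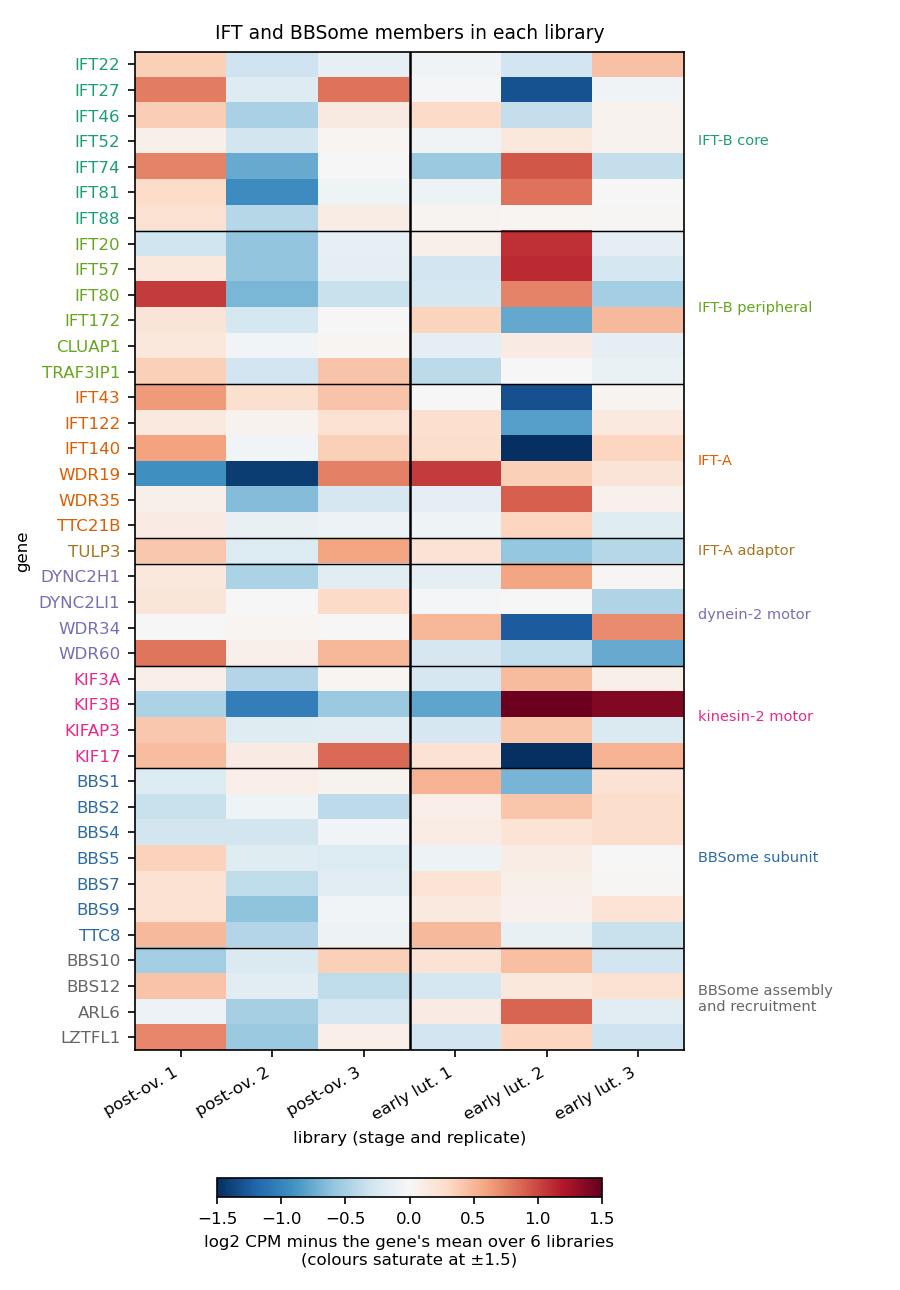
Each member in each library as log2 CPM minus the gene's mean over the 6 libraries, ordered by role, red above and blue below that mean. Post-ovulatory replicate 2 is blue for most members, early luteal replicate 2 holds both the reddest and the bluest cells, and BBS2 and BBS4 are pale red in all 3 early luteal libraries.

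Early luteal replicate 2 departed from the other early luteal libraries upward in some members and downward in others. It was the highest of the 6 libraries in 14 members and the lowest in 9, against 27.0% and 39.2% of all genes tested. Post-ovulatory replicate 2 was the lowest of the 6 in 20 members, against 12.85% of all genes tested. In early luteal replicate 2, 12 members were higher than the mean of early luteal replicates 1 and 3 by over 0.5 on the log2 scale. There 9 members were lower by over 0.5. As shares of the members these were 30.8% and 23.1%, and over all genes tested 27.2% and 40.8%. The members had a higher median level than all genes, and the genes were not matched by level. The median absolute difference was 0.55 over the members, 0.71 over the axonemal genes and 0.82 over all genes. The difference was 1.39 for IFT57 and IFT74, 1.16 for KIF3B, 1.14 for IFT80 and 1.13 for IFT20. At the other end it was -2.55 for KIF17, -1.85 for WDR34, -1.78 for IFT140, -1.34 for IFT43 and -1.27 for IFT27.

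These deviations cut across the complexes. IFT-A held IFT140 and IFT43 among the lowest and WDR35 (0.94) among the highest, and peripheral IFT-B held IFT172 (-1.18) beside IFT57. The BBSome subunits other than BBS1 (-1.06) stayed between -0.19 and 0.24 in the same library. FOXJ1, the transcription factor of motile ciliogenesis, stood at 79.3 CPM in early luteal replicate 2 and at 199.9 to 654 CPM in the other 5 libraries. Early luteal replicate 2 had 8342520 counts, among totals from 7370723 (post-ovulatory replicate 2) to 30954222 (post-ovulatory replicate 3). Of its counts 7.54% came from 13 mitochondrial genes, against 3.47% to 6.92% in the other libraries. The part of these properties in the members' values was not tested.

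**Figure D5:**
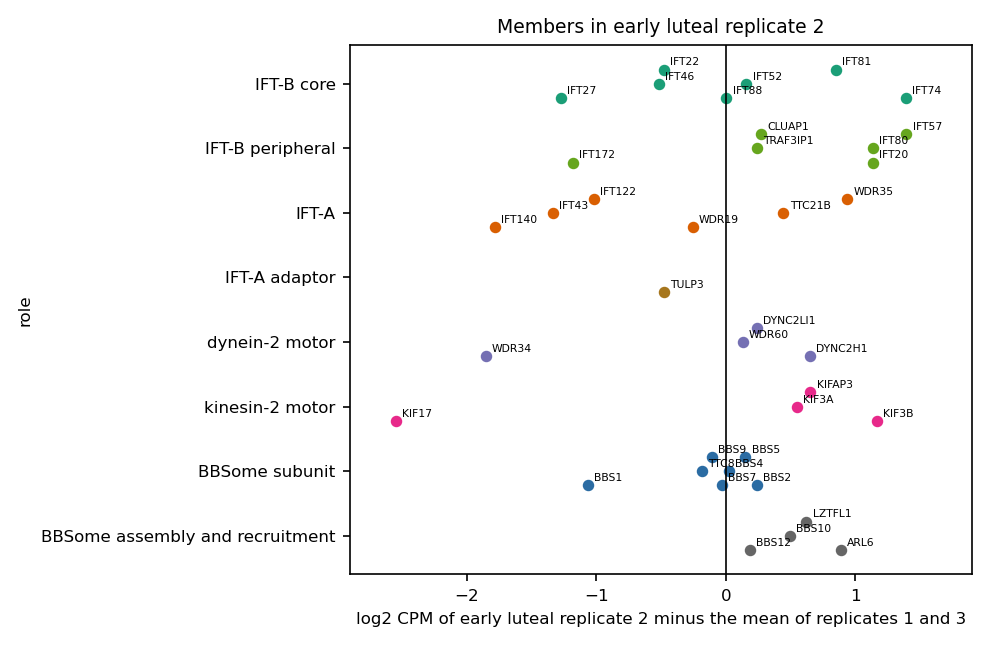
Deviation of early luteal replicate 2 from the mean of early luteal replicates 1 and 3 for each member, in log2 CPM, with 1 row per role. KIF17 lies lowest (-2.55), IFT57 and IFT74 lie highest (1.39), and the BBSome subunits other than BBS1 lie near 0.

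Other genes of ciliary transport gave no call either. Of 24 further transport genes (remaining subunits, motor light chains, GTPases and kinases) 0 passed in edgeR, with 10 higher, 14 lower and a median of -0.03 (log2 fold change), and 0 had an unadjusted p under 0.05. CILK1, a kinase at the ciliary tip, stood at 60.3, 87.8 and 79.1 CPM in post-ovulatory and 85.3, 166 and 104.7 CPM in early luteal replicates. RAB8A, a GTPase of ciliary membrane delivery, stood at 87.3, 68.7 and 64.9 CPM against 48.4, 63.9 and 50.1 CPM. RAB8A did not overlap between the stages and CILK1 did.

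The transition zone is the gate at the base of the cilium through which the trains pass. Of its 17 listed genes, some of which act at the mother centriole beneath it, 9 were higher and 8 lower and 0 passed in edgeR. The median log2 fold change was 0.01. TTBK2, a kinase needed to start cilium growth, stood at 21.4, 30.1 and 25.5 CPM against 35.0, 36.9 and 53.6 CPM with no overlap (log2 fold change 0.71 ± 0.30, SE; edgeR adjusted p = 0.685). CEP164, which recruits TTBK2 to the centriole, stood at 142, 63.3 and 81.2 CPM against 65.05, 37.1 and 61.4 CPM, with overlap through post-ovulatory replicate 2.

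Axonemal genes likewise had 0 of 28 past the threshold, 15 higher and 13 lower, with a median of 0.04. DNAH5, an outer arm dynein, stood at 545, 309 and 454 CPM in post-ovulatory and 328, 393 and 213 CPM in early luteal replicates. RSPH9, a radial spoke protein, stood at 45.9, 14.8 and 19.8 CPM against 20.4, 6.10 and 18.9 CPM. Both overlapped between the stages.

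Among the ciliary transcription factors, 8 of 9 were tested, RFX4 being too low, and 0 passed in edgeR. Of the 8, 1 had a higher and 7 a lower fitted level, with a median log2 fold change of -0.25. FOXJ1 stood at 654, 199.9 and 429 CPM against 413, 79.3 and 409 CPM, and RFX3, a regulator of IFT genes, at 24.3, 11.4 and 16.3 CPM against 9.73, 26.8 and 16.3 CPM. GMNC, a factor at the onset of multiciliation, stood at 72.5, 39.4 and 55.3 CPM against 22.03, 24.5 and 13.03 CPM. GMNC did not overlap between the stages. Its log2 fold change was -1.49 ± 0.36 (SE), with an adjusted p of 0.571 in edgeR and 0.0345 in DESeq2. MCIDAS, which acts after GMNC, stood at 59.2 CPM in post-ovulatory replicate 1 and at 4.51 CPM or less in every other library, with no count in early luteal replicates 2 and 3, where the floor of 3 counts is 0.406 and 0.200 CPM. Whether the members and these factors differ in their response to stage was not tested.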

How the data were processed

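Stranded mRNA libraries were prepared from total RNA of the ampulla and read from both ends, per the labels' protocols. FastQC 0.11.4, Trim Galore, STAR and the build Sscrofa11.1 are named in the submitters' processing notes; which tool counted reads, with which strand setting and on which annotation, is not given in the sources used here. The authors deposited whole-number counts per Ensembl gene, not normalized. Overlapping genes are therefore uncertain: 15 of the 37 members with RefSeq coordinates overlap another gene. The table's header lacks a tab, so its words were matched to columns in order, and 1 word, taken as early luteal replicate 3, is spelled with a letter fewer than the label.

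CPM used TMM scaling. Genes passing filterByExpr were tested with edgeR 4.0.16 (R 4.3.3; robust quasi-likelihood test, two-sided, Benjamini-Hochberg adjustment over 17920 genes, threshold 0.05). SE is the absolute log2 fold change over the root of F. Scores used log2 CPM with a prior count of 2. Alternatives were DESeq2 1.42.0, limma 3.58.1 voom with and without quality weights, other scalings and filters, the replicate block and each library left out. Scripts were tested on simulated data. Intervals and floors cover counting error or the spread between these libraries only.

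Members, lists and tests were chosen with earlier results of these data known. Named members are, in each role, up to 3 with the lowest p and the one with the highest mean CPM; members outside this rule (such as IFT88, IFT74, IFT80 and WDR34) were chosen after their values were seen. COL1A1, OVGP1 and KRT7 have the lowest p of their marker lists, and SLPI completes its list. In each pathway list the 2 genes with the lowest p are named, with FOXJ1 and RFX3. Marker lists are given as sums and scores. No transcript lengths and no sequences were used here.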

Additional observations from a re-analysis of the deposited data

How the results depend on the processing

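No member passed the threshold under any of the alternatives run: the count was 0 in each, the lowest adjusted p of a member being 0.0928 (KIF3B without early luteal replicate 1, edgeR). Of 24 named members, 18 kept their direction in all 15 alternatives. IFT46 changed sign with upper quartile scaling (0.023), library totals alone (0.019) and limma voom with quality weights (0.11), and BBS10 with the weights (-0.29). Leaving out each library in turn gave -0.25 to 0.15 for IFT46, -0.51 to 0.12 for LZTFL1, -0.0072 to 0.17 for IFT52, -0.11 to 0.42 for IFT172 and -0.11 to 0.77 for IFT57. Without early luteal replicate 2 the log2 difference also shrank by over 1.5 times for IFT27 (-0.58), IFT81 (0.12) and KIF17 (-0.14). It did so for KIF3A (0.01), IFT52 (0.045) and BBS10 (0.059) as well, beside the genes named with that library above. Leaving out single libraries gave 17 to 29 members higher, 10 to 22 lower and a median between -0.02 and 0.19. The lower count moved by over 1.5 times without post-ovulatory replicate 2 (22). With no filter on low counts the split was 20 higher and 19 lower. The BBSome subunits with a higher early luteal level numbered 5 to 7 in every alternative, 5 with no filter. The count of members that did not overlap was 7 with library totals alone and 6 to 11 without each library in turn, where 24.3% to 33.9% of all genes did not overlap; the count was 11, 10 and 6 with post-ovulatory replicates 1, 2 and 3 left out and 6, 10 and 7 with early luteal replicates 1, 2 and 3 left out, fewer libraries making a gap more frequent over all genes as well. This alternative and that for the BBSome count were chosen after seeing the data. Among the other pathway genes DESeq2 called 1, GMNC, where it called 1.02% of all genes with an adjusted p.

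Samples of the 2 stages share only replicate numbers. The deviations of same-numbered libraries from their stage means correlated at 0.052, -0.082 and 0.126 across genes for replicates 1, 2 and 3. With the replicate block 0 members passed (edgeR), 24 were higher and 15 lower, and the median was 0.04. Of the 6 libraries, those numbered 3 correlated best with their own number, and the others with another number (post-ovulatory replicate 1 with early luteal replicate 2, 0.061).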
